A study of Mus musculus with 8 samples.

Results

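The genes described here are 39 regulators of chromatin, nearly all of which have a long coding region. They were taken by symbol from a fixed list, and each was represented by the protein-coding transcript that carried the most reads over all libraries. All 39 were found among the 21874 genes with a protein-coding transcript. Their coding regions ran from 2241 bases (Ezh2) to 16767 bases (Kmt2d), with a median of 6168 bases against 1137 bases over all coding genes. In 33 of them the coding region was over 4 kb and in 20 it was over 6 kb, so the description as long held for most members, and the 6 others lay between 2 and 4 kb.

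Chromatin regulators set which genes a cell can read. Histone methyltransferases and acetyltransferases place marks on histone tails, deacetylases and demethylases remove them, DNA methyltransferases mark cytosines, and ATP-driven remodellers of the CHD, BAF, ISWI and INO80 types slide or evict nucleosomes. In the developing brain these proteins are known to govern the exit of progenitors from the cell cycle and the maturation of neurons, and loss of 1 copy of several of them is known to cause neurodevelopmental disorders.

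The study counted ribosome-protected fragments, the short stretches of mRNA shielded by a ribosome from nuclease, in whole brain of FVB mice at postnatal day 5. SMN, the protein lost in spinal muscular atrophy (SMA), binds ribosomes, and the question was which mRNAs those ribosomes carry and which are actively translated in the diseased brain. All animals belonged to the 'Taiwanese' SMA model and carried the human SMN2 transgene on 1 allele (SMN2tg/0). The 3 SMN pull-downs, in which an anti-SMN antibody recovered ribosomes pelleted after RNase I digestion at room temperature, and the 1 pull-down with control IgG came from phenotypically normal Smn+/-; SMN2tg/0 mice. The 2 RiboLace libraries, which capture ribosomes in active elongation on a puromycin analogue, and the 2 libraries of polysomes from sucrose gradients came from early symptomatic Smn-/-; SMN2tg/0 mice. Polysomes were digested in the cold for longer. The libraries are labelled as biological replicates. No untreated input and no polysome or RiboLace library of the control genotype was analysed here, so genotype, digestion and the way of isolating ribosomes cannot be told apart between the pull-downs and the other libraries. In whole brain, fewer cells of a type and less RNA per cell cannot be told apart either.

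Depth differed widely. Reads on coding genes, 1 transcript per gene, numbered 133295 to 237760 in the SMN pull-downs, 206690 in the IgG pull-down, 39375 and 47846 in RiboLace, and 1661834 and 2295393 in polysomes. A member had a median of 15 to 36 reads in an SMN pull-down, 36 in the IgG pull-down, 3 or 4 in RiboLace and 126 or 182 in polysomes, and 35 of the 39 had a read in all 8 libraries. In 15 members both RiboLace libraries held 3 reads or fewer.

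The libraries also seem to differ in how reads that fit more than 1 transcript of a gene were counted. How these reads were assigned is not known, and a difference would touch every comparison with polysomes. Pairs of coding transcripts of the same gene that differ by at most 2% in length were compared by the squared difference of their counts over their sum, which averages about 1 when each read lies on only 1 of them and falls toward 0 when the same reads are on both. The average was 1.16 and 1.12 in the polysome libraries and 0.950 in SMN pull-down 2. It was 0.256 and 0.306 in SMN pull-downs 1 and 3, 0.349 in the IgG pull-down, and 0.544 and 0.485 in RiboLace. Among pairs of the members alone, 7 to 17 per library, it was 0.624 and 1.33 in polysomes and 0.889 in SMN pull-down 2. For these pairs SMN pull-downs 1 and 3 had 0.133 and 0.341, the IgG pull-down 0.152, and RiboLace 0.324 and 1.09. By the averages over all genes, a gene with many transcripts would keep fewer reads on the chosen transcript in polysomes and SMN pull-down 2. The members had 1 (Nsd1) to 25 (Ncor1) transcripts in the table, with a median of 7. For this reason the comparison of the SMN pull-downs with polysomes is given with all 3 pull-downs, with pull-down 2 alone and without pull-down 2. By the averages over all genes, pull-down 2 seems to be counted like the polysomes. The comparison with IgG is given with and without pull-down 2.

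Taken as 1 group, the 39 genes held a larger share of coding reads in both kinds of pull-down than in the SMA libraries. Their share was 0.702%, 0.536% and 0.633% in the SMN pull-downs, a mean of 0.624% ± 0.0834 (SD, n = 3). It was 0.718% in the IgG pull-down, with an exact Clopper-Pearson 95% interval of 0.682% to 0.755% that covers counting error only. RiboLace had 0.393% and 0.424%, and polysomes had 0.390% and 0.396%. Every pull-down, the IgG control included, lay above all 4 SMA libraries, and SMN pull-down 2 was the lowest of the pull-downs. Among the roles, the CHD remodellers and the BAF complex contributed most in each library: BAF members held 0.163% of coding reads in the IgG pull-down and 0.0944% and 0.0990% in polysomes.

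**Figure D1:**
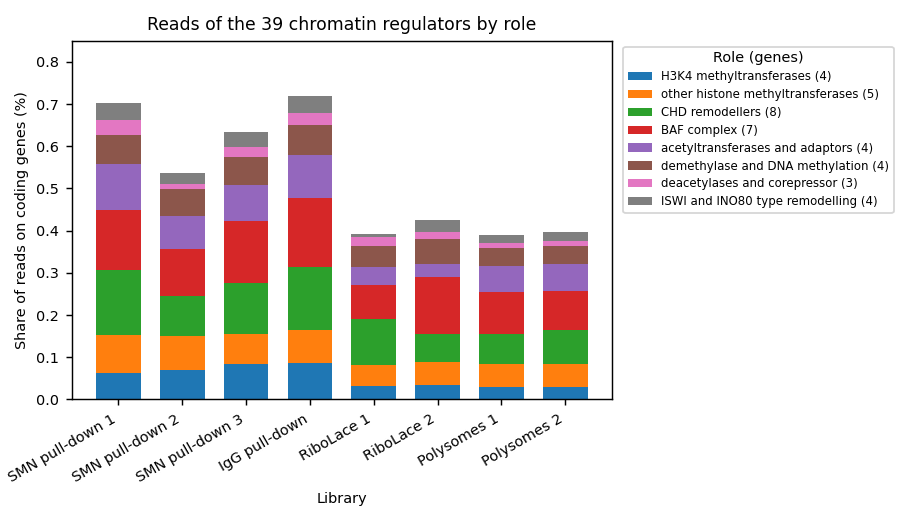
Share of reads on coding genes (%, from 0) that fell on the 39 chromatin regulators in each of the 8 libraries, stacked by role with the number of genes in brackets. The 4 pull-down bars reach 0.536% to 0.718%, above the 4 RiboLace and polysome bars at 0.390% to 0.424%.

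Levels were compared between genes only per kb of coding region, as CPM (read counts scaled to a common library size, with TMM factors over the 8 libraries) per kb. In polysomes the highest level belonged to Smarcc2, a scaffold subunit of the BAF remodelling complex, at 69.8 ± 7.75 CPM per kb (SD, n = 2). Crebbp, a histone acetyltransferase that serves many transcription factors as coactivator, followed at 50.1 ± 0.700. Dnmt3a, which methylates DNA de novo and is abundant in young neurons, had 43.6 ± 0.187, and Nsd1, a histone H3 lysine 36 methyltransferase, had 42.5 ± 0.997. The means of Dnmt3a and Nsd1 differed by about the SD of Nsd1, whereas the values of Smarcc2 and Crebbp in the single libraries did not overlap those of their neighbours in the order.

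The lowest polysome levels per kb were those of Chd7, a remodeller known for its loss in CHARGE syndrome, at 2.17 ± 0.120 CPM per kb, and of Kmt2a, a histone H3 lysine 4 methyltransferase, at 3.76 ± 0.429. Between these ends the order was dense, and many neighbours could not be separated: Chd3, Chd4 and Chd5, paralogous remodellers of NuRD-type complexes, had 31.3 ± 0.0749, 29.7 ± 2.84 and 28.0 ± 1.14 CPM per kb. The median member, on plain totals, had 9.90 CPM per kb in polysomes against 14.3 over the 17006 coding genes with a polysome read. The order depended on the transcripts counted. With all coding transcripts of a gene summed, Smarcc2 stayed at rank 1, Dnmt3a stood at rank 2 and Chd7 stayed at rank 39, but Crebbp moved from rank 2 to 13 and Nsd1 from rank 4 to 15.

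**Figure D2:**
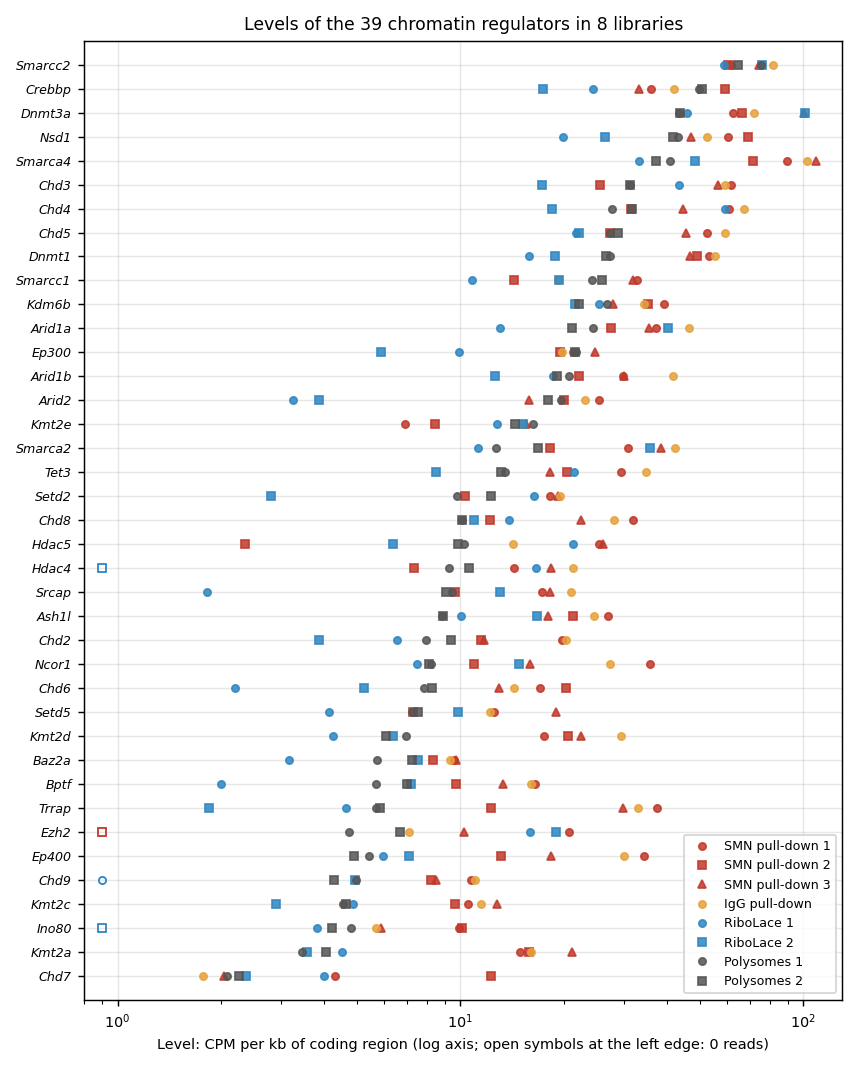
Level of each of the 39 members (CPM per kb of coding region, log axis) in the 8 libraries, in the order of the polysome mean; symbols mark replicates and open symbols at the left edge stand for 0 reads. Polysome replicates (grey) lie close together, from Chd7 at 2.17 to Smarcc2 at 69.8 on average, and the pull-down symbols (red and orange) lie to their right in most of the lower part of the plot.

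Against polysomes, 23 of the 37 members tested were higher in the SMN pull-downs and 0 were lower (adjusted p under 0.05 by edgeR's quasi-likelihood test, with Benjamini-Hochberg adjustment over all genes), beside 16.4% higher and 11.1% lower among the 6484 genes tested. The median member stood 0.95 higher on the log2 scale, where 1 is 2-fold, against -0.02 over all genes, and 35 of 37 had a positive value. Chd7 and Ezh2 had too few reads to be tested. All 3 pull-downs lay above both polysome libraries in 24 members, beside 16.8% of all genes, and below both in 0, beside 35.4%. Of the 23 that passed, 19 showed no overlap, while Chd3, Chd4, Chd5 and Setd5 did, in each case through pull-down 2.

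The count rests on few libraries. It was 12 without SMN pull-down 1 (beside 4.04% of all genes), 12 without SMN pull-down 3 (11 of the 23 and Chd7, beside 3.47%), and 27 without SMN pull-down 2 (beside 16.0%). It was 4 without polysome library 1 or 2 (beside 1.66% and 1.72%), when the lone polysome library is assumed to vary like the pull-downs. With pull-down 2 alone, 10 of 39 members were higher and 0 lower, beside 2.91% and 1.39% of 12748 genes, and the median member stood at 0.47. In that fit the spread comes from the 2 polysome libraries only and the lone pull-down is assumed to share it, so its calls do not measure the spread between pull-downs. Of these 10, 8 were among the 23: Kmt2a, Kmt2d, Ash1l, Chd6, Smarca4, Trrap, Ep400 and Dnmt1. The other two were Nsd1 and Chd7. Scaling by library totals in place of TMM moved the median of all genes from -0.02 to -0.31 and that of the members to 0.66, so the members stayed 0.96 above it in both. Under that scaling 16 members were higher and 0 lower, while the split over all genes went from 1062 higher and 719 lower to 636 and 1578. The folds below come from a fit scaled on the 5 libraries compared and lie a median of 0.20 above the log2 ratio of the printed CPM means, which are scaled on all 8.

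The methyltransferases of histone H3 lysine 4 mark promoters and enhancers that are in use. They held the 3 longest coding regions, and 3 of the 4 were higher. This count and those of the roles below stand beside 16.4% of all genes tested. Among other genes, 21.7% from 2 to 4 kb, 47.0% from 4 to 6 kb and 68.4% over 6 kb were higher. Kmt2a (ENSMUSG00000002028, 11901 coding bases) was at 178, 189 and 252 CPM in the SMN pull-downs, 191 in the IgG pull-down, 53.6 and 42.5 in RiboLace, and 41.1 and 48.4 in polysomes. The 4 pull-downs lay far above the 4 SMA libraries and overlapped each other. Its fold over polysomes was 2.43 ± 0.23 (log2, SE; edgeR adjusted p = 7.41e-06).

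Kmt2d (ENSMUSG00000048154) was at 294, 346 and 376 CPM in the SMN pull-downs, 492 in the IgG pull-down, 71.5 and 106 in RiboLace, and 117 and 102 in polysomes. Its fold over polysomes was 1.85 ± 0.21 (edgeR adjusted p = 4.14e-05), and the IgG library was the highest of all 8. Kmt2c, its paralogue at enhancers with 14715 coding bases, was at 155, 142 and 188 CPM in the SMN pull-downs, 169 in the IgG pull-down, 71.5 and 42.5 in RiboLace, and 66.7 and 68.1 in polysomes. It rose by less, 1.49 ± 0.22 (edgeR adjusted p = 0.000428), with the IgG value inside the range of the SMN pull-downs.

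Kmt2e, with 5607 coding bases the shortest of this role and a member without known methyltransferase activity, was the exception. It had 38.7, 47.2 and 87.0 CPM in the SMN pull-downs, 84.7 in the IgG pull-down, and 91.0 and 80.9 in polysomes, and its fold of -0.25 ± 0.31 (edgeR adjusted p = 0.576) was the lowest of the 37.

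Of the other histone methyltransferases, 2 of the 4 tested were higher. Ash1l, which methylates histone H3 lysine 36 and counters Polycomb silencing, was at 240, 189 and 160 CPM in the SMN pull-downs, 217 in the IgG pull-down, 89.4 and 149 in RiboLace, and 78.5 and 79.1 in polysomes. The pull-downs lay above every other library, with a fold over polysomes of 1.46 ± 0.23 (edgeR adjusted p = 0.000581). Setd5 was the second (1.12 ± 0.37, edgeR adjusted p = 0.0347), with 31.5 CPM in pull-down 2 inside the polysome range of 31.2 to 32.5.

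Nsd1 is the only member with 1 transcript in the table, so the sharing of reads within a gene could not move its own counts. Its CPM and folds are still relative to the reads of other genes. Other genes with 1 transcript had a median log2 fold over polysomes of -0.44 in the SMN pull-downs and -0.72 in RiboLace. Nsd1 was at 487, 559 and 380 CPM in the SMN pull-downs, 423 in the IgG pull-down, 161 and 213 in RiboLace, and 349 and 338 in polysomes. The pull-downs lay above the polysomes and RiboLace lay below them. The fold of the SMN pull-downs over polysomes was 0.65 ± 0.25 and missed the threshold with all 3 (edgeR adjusted p = 0.0623). It was 0.45 ± 0.16 without pull-down 2 (edgeR adjusted p = 0.0249) and 0.84 with pull-down 2 alone. Setd2, which places trimethylation on histone H3 lysine 36, was just outside as well (0.76 ± 0.27, edgeR adjusted p = 0.0511). Ezh2, the catalytic subunit of Polycomb complex 2, was the shortest member. It had only 6, 0 and 5 reads in the SMN pull-downs and 3 in the IgG pull-down, at 46.4, 0, 22.9 and 15.9 CPM. The fold of its SMN pull-downs over polysomes without pull-down 2 was 1.42 ± 0.56 (edgeR adjusted p = 0.0514). RiboLace had 2 reads in each library, at 35.7 and 42.5 CPM, against 10.6 and 14.9 CPM in polysomes. From these few reads its RiboLace fold over polysomes was 1.79 ± 0.95 (edgeR adjusted p = 0.371).

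Among the CHD remodellers, 6 of the 7 tested were higher. Chd8, a remodeller frequently mutated in autism, was at 247, 94.4 and 174 CPM in the SMN pull-downs, 217 in the IgG pull-down, 107 and 85.1 in RiboLace, and 78.5 and 78.3 in polysomes. Its fold over polysomes was 1.33 ± 0.26 (edgeR adjusted p = 0.00294), with pull-down 2 nearest to the polysomes. Chd6 and Chd9 had folds of 1.18 ± 0.25 and 1.17 ± 0.30.

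The paralogues Chd3, Chd4 and Chd5 had nearly equal folds of 0.83 ± 0.28, 0.81 ± 0.25 and 0.78 ± 0.24, with edgeR adjusted p-values of 0.0392, 0.0278 and 0.0255. Chd4 was at 348, 181 and 257 CPM in the SMN pull-downs, 386 in the IgG pull-down, 340 and 106 in RiboLace, and 159 and 182 in polysomes. Chd3 was at 379, 157 and 348 CPM in the SMN pull-downs and 365 in the IgG pull-down. It had 268 and 106 CPM in RiboLace and 193 in both polysome libraries. Chd5, which is largely restricted to neurons, was at 302, 157 and 261 CPM in the SMN pull-downs and 339 in the IgG pull-down. It had 125 and 128 CPM in RiboLace and 156 and 166 in polysomes. In all 3 paralogues pull-down 2 was at or below a polysome library, and with that pull-down alone their folds were -0.16, 0.21 and 0.09, none past the test.

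Chd7 ran the other way. It was at 38.7, 110 and 18.3 CPM in the SMN pull-downs, from 5, 14 and 4 reads, at 15.9 in the IgG pull-down, at 35.7 and 21.3 in RiboLace, and at 18.7 and 20.2 in polysomes. Pull-down 2 stood far above the other two, and pull-down 3 lay just below the polysome libraries. The fold over polysomes was 2.62 with pull-down 2 alone and 0.56 ± 0.56 without it (edgeR adjusted p = 0.475).

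Of the 7 BAF members, 4 were higher. BAF complexes are built around 1 of 2 ATPases, Smarca4 or Smarca2. Smarca4 was at 433, 346 and 527 CPM in the SMN pull-downs, 497 in the IgG pull-down, 161 and 234 in RiboLace, and 198 and 181 in polysomes, and its fold over polysomes was 1.42 ± 0.25 (edgeR adjusted p = 0.00116). Smarca2 was at 147, 86.6 and 183 CPM in the SMN pull-downs, 201 in the IgG pull-down, 53.6 and 170 in RiboLace, and 60.5 and 80.0 in polysomes, with a fold of 1.23 ± 0.28 (edgeR adjusted p = 0.00625). Pull-down 2 was the lowest pull-down in both, and for Smarca2, with 19 transcripts, it barely exceeded the higher polysome library.

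The DNA-binding subunits Arid1a and Arid1b had smaller folds, 0.77 ± 0.22 (edgeR adjusted p = 0.0179) and 0.68 ± 0.21 (edgeR adjusted p = 0.0291). Arid1a was at 255, 189 and 243 CPM in the SMN pull-downs, 318 in the IgG pull-down, 89.4 and 277 in RiboLace, and 166 and 145 in polysomes. Arid1b was at 201, 150 and 202 CPM in the SMN pull-downs, 280 in the IgG pull-down, 125 and 85.1 in RiboLace, and 140 and 128 in polysomes. In both the IgG library was above all 3 SMN pull-downs.

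The scaffold subunits Smarcc1 and Smarcc2, among the shorter members, did not pass. Smarcc2 was at 224, 220 and 270 CPM in the SMN pull-downs, 296 in the IgG pull-down, 214 and 277 in RiboLace, and 274 and 234 in polysomes, so that all kinds of library overlapped except the IgG value, which was the highest. Its fold of 0.12 ± 0.24 changed sign under 8 of the alternatives listed in the closing section. Smarcc1 was at 108, 47.2 and 105 CPM in the SMN pull-downs, 63.5 in the IgG pull-down, 35.7 and 63.8 in RiboLace, and 79.8 and 85.3 in polysomes. Arid2, the signature subunit of the PBAF variant, had a fold of 0.26 ± 0.26.

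The acetyltransferases and their adaptors divided into pairs. Trrap, the large scaffold that recruits acetyltransferase complexes, was at 433, 142 and 344 CPM in the SMN pull-downs, 381 in the IgG pull-down, 53.6 and 21.3 in RiboLace, and 65.4 and 67.3 in polysomes. Ep400, the ATPase that shares a complex with it, was at 309, 118 and 165 CPM in the SMN pull-downs, 270 in the IgG pull-down, 53.6 and 63.8 in RiboLace, and 48.6 and 44.0 in polysomes. Their folds of 2.42 ± 0.28 (edgeR adjusted p = 4.14e-05) and 2.25 ± 0.29 (edgeR adjusted p = 0.000132) were the next largest among the members after Kmt2a. With pull-down 2 alone they were 1.22 and 1.49, and without it 2.66 and 2.41.

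Crebbp and Ep300, the paralogous acetyltransferases themselves, showed no rise in spite of coding regions of 7326 and 7239 bases. Crebbp was at 263, 433 and 243 CPM in the SMN pull-downs, 307 in the IgG pull-down, 179 and 128 in RiboLace, and 363 and 371 in polysomes. Only pull-down 2 exceeded the polysomes, and the fold was -0.06 ± 0.27 (edgeR adjusted p = 0.895). Ep300 was at 155, 142 and 179 CPM in the SMN pull-downs, 143 in the IgG pull-down, 71.5 and 42.5 in RiboLace, and 158 and 157 in polysomes, with a fold of 0.23 ± 0.21 (edgeR adjusted p = 0.432).

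Among the remaining roles, Dnmt3a and the maintenance methyltransferase Dnmt1 rose by 1.07 ± 0.22 and 1.06 ± 0.20 (edgeR adjusted p = 0.00341 and 0.00225). Tet3, which oxidises methylcytosine, rose by 0.91 ± 0.26 (edgeR adjusted p = 0.0201), and the histone demethylase Kdm6b missed the threshold at 0.63 ± 0.24 (edgeR adjusted p = 0.0568). Dnmt3a was at 170, 181 and 275 CPM in the SMN pull-downs, 196 in the IgG pull-down, 125 and 277 in RiboLace, and 118 and 119 in polysomes, and its lowest pull-down was above both polysome libraries.

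Ncor1, the corepressor that brings histone deacetylases to nuclear receptors, was at 255, 78.7 and 115 CPM in the SMN pull-downs, 196 in the IgG pull-down, 53.6 and 106 in RiboLace, and 58.6 and 58.0 in polysomes. It rose by 1.49 ± 0.32 (edgeR adjusted p = 0.00452) on widely spread pull-downs, and the deacetylases Hdac4 and Hdac5 did not pass. Bptf, the reader subunit of the ISWI-type NURF complex, was at 147, 86.6 and 119 CPM in the SMN pull-downs, 143 in the IgG pull-down, 17.9 and 63.8 in RiboLace, and 50.5 and 62.4 in polysomes. It rose by 1.23 ± 0.28 (edgeR adjusted p = 0.00565) and the SWR1-type ATPase Srcap by 0.95 ± 0.24 (edgeR adjusted p = 0.0110), while Ino80 and Baz2a did not pass.

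The fold over polysomes was larger in members with longer coding regions. Across the 37 members, Spearman's rho of the fold with coding length was 0.45 and Pearson's r with its log2 was 0.50. Over 39 members, rho was 0.56 with pull-down 2 alone, and rho was 0.32 and r 0.33 without it. These are descriptions across genes that share libraries, depth and counting. The 4 members over 10 kb (Kmt2d, Kmt2c, Kmt2a and Trrap) had a median fold of 2.13, the 15 tested from 6 to 10 kb had 0.95, and the 18 tested up to 6 kb had 0.83.

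Genes that are not members followed the same course. The median fold of other genes was -0.37 under 1 kb, -0.10 from 1 to 2 kb, 0.23 from 2 to 4 kb, 0.76 from 4 to 6 kb and 1.13 over 6 kb. In that longest class 68.4% of 250 other genes were higher and 0 lower, against 78.9% of 19 members. Set against the median of its own length class, the median member stood 0.09 above, and 24 of 37 were above. With pull-down 2 alone the sign turned, with a median of -0.08 and 18 of 39 above. Kmt2a, Trrap and Ep400 exceeded their class, over 6 kb, by 1.30, 1.29 and 1.12 with all 3 pull-downs. With pull-down 2 alone they exceeded it by 1.28, 0.31 and 0.58. That class is wide, and Kmt2a and Trrap lie over 10 kb. With all 3 pull-downs, other genes over 10 kb had a median of 1.58, with 85.2% of 54 higher. Other genes from 6 to 10 kb, where Ep400 lies, had 1.00. With all 3, Crebbp, Kmt2e and Ep300 fell short by -1.19, -1.0 and -0.90.

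**Figure D3:**
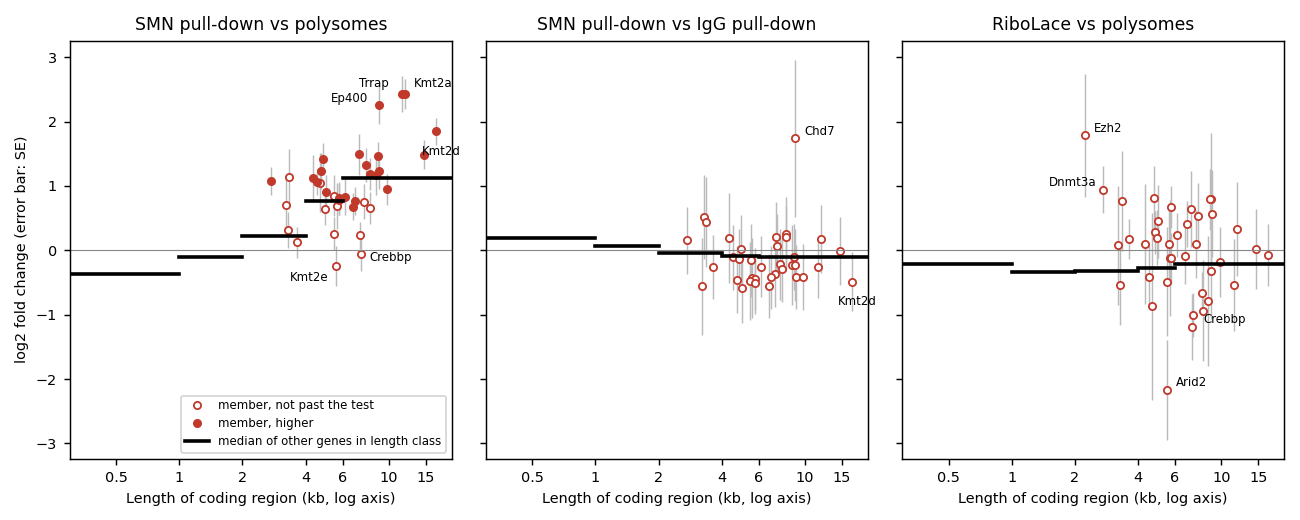
Log2 fold change of each member tested (points, with SE bars; filled where higher past the test) against the length of its coding region (kb, log axis) in 3 comparisons, with black lines for the median of other genes in 5 length classes. Against polysomes the SMN pull-down points climb with length along the class medians, which rise from -0.37 to 1.13; against the IgG pull-down they lie around -0.23, and for RiboLace around 0.10 with wide bars.

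The number of transcripts moved with the fold too. With all 3 pull-downs, the median of other genes was -0.44 for genes with 1 transcript and 0.80 for genes with over 8. With pull-down 2 alone, which seems to be counted like the polysomes, these medians were -0.21 and 0.01. The course with length remained in that pull-down among genes with 1 transcript, where the median fold of other genes ran from -0.39 under 1 kb to 0.85 over 6 kb.

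A setting added after the data were seen summed all transcripts of each gene in SMN pull-down 2 and in both polysome libraries, while the others kept the chosen transcript. Of 36 members tested, 18 were then higher and 0 lower, beside 15.1% and 11.2% of 6732 genes, and 12 of these were among the 23. The median was 0.61 and rho with coding length 0.73. The Spearman correlation with the number of transcripts turned from 0.36 to -0.34, so this setting reversed the relation with transcript number and did not remove it. Kmt2a, Kmt2d and Kmt2c stood at 2.13, 1.82 and 1.32, while Trrap went from 2.42 to 1.49 and Ep400 from 2.25 to 1.34. Dnmt3a, Setd5 and Smarca2, with 18, 14 and 19 transcripts, turned to -0.08, -0.30 and -0.14, and Ncor1 fell to 0.09. Crebbp, with 2 transcripts, turned to 0.57 and passed the test (edgeR adjusted p = 0.0261), and Nsd1 stood at 1.33 (edgeR adjusted p = 0.000731). The part of the counting in each member's fold was not tested beyond these values.

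The IgG pull-down showed the same pattern over polysomes. Since it is a single library, its values are log2 ratios to the polysome mean (prior count 2) without a test. The median member stood at 1.02 over polysomes in the IgG pull-down, with 34 of 39 above 0, against -0.22 over the 6484 genes. In the SMN pull-downs the medians of the members were 0.96, 0.35 and 0.78, with 35, 28 and 36 members above 0. In RiboLace they were -0.24 and -0.17, with 15 and 16 above 0, against -0.55 and -0.61 over the genes. These ratios share the polysome libraries and are given side by side only.

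The members over 10 kb had a median ratio of 2.08 in the IgG pull-down and of 1.66, 1.35 and 2.03 in the SMN pull-downs. RiboLace gave -0.10 and -0.34 for the same 4 genes. Trrap and Ep400 were both at 2.46 in the IgG pull-down. Over all genes tested, members included, the median of the class over 6 kb was 1.03 in the IgG pull-down, 1.00, 0.76 and 0.92 in the SMN pull-downs, and -0.43 and -0.41 in RiboLace.

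**Figure D4:**
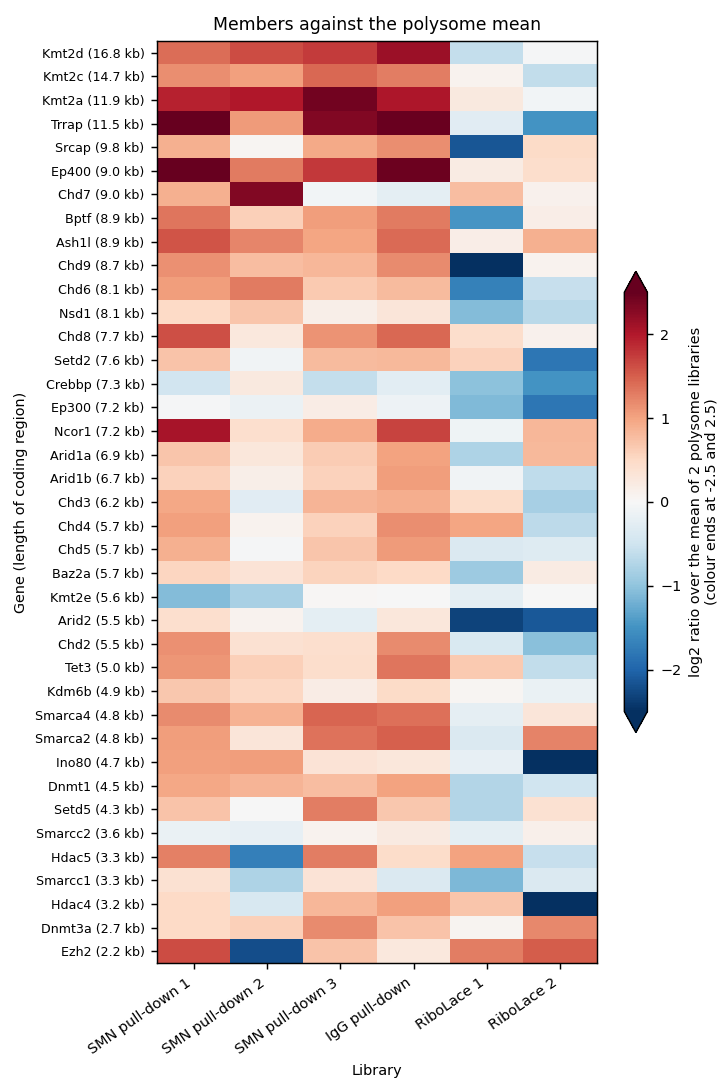
Log2 ratio of each member to the mean of the 2 polysome libraries (colour, ending at -2.5 and 2.5) in the 3 SMN pull-downs, the IgG pull-down and the 2 RiboLace libraries, ordered from the longest coding region to the shortest. The top rows are red in all 4 pull-downs, the IgG column resembles the SMN columns, and the RiboLace columns are mixed with medians of -0.24 and -0.17.

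**Figure D5:**
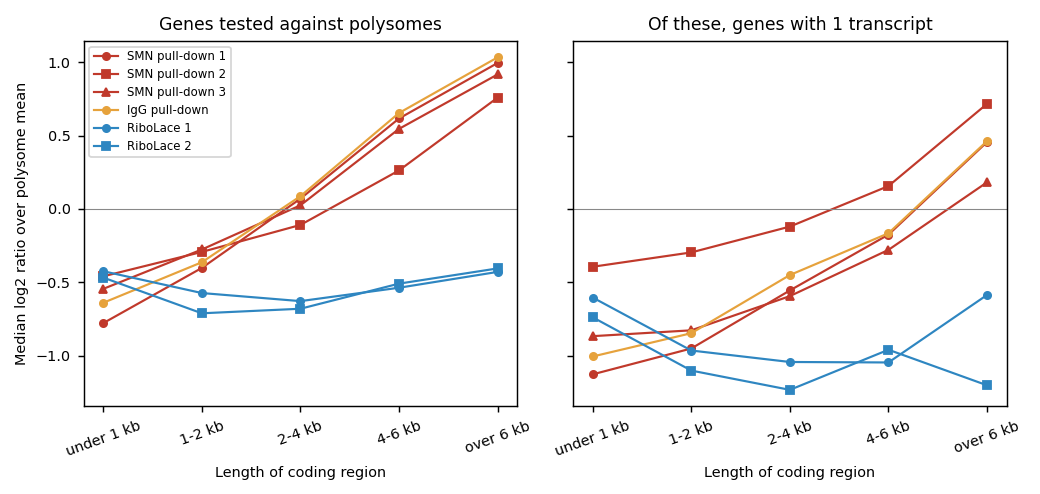
Median log2 ratio to the polysome mean in 5 classes of coding length, for each pull-down and RiboLace library (lines), over the 6484 genes tested (left) and over those with 1 transcript in the table (right). The 4 pull-down lines climb with length in both panels, SMN pull-down 2 lies highest on the right, from -0.39 to 0.72, and the RiboLace lines do not climb steadily.

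Against the IgG pull-down, the study's control for unspecific binding, 0 of the 36 members tested were higher and 0 lower in the SMN pull-downs (edgeR quasi-likelihood test), beside 0.0% and 0.0181% of 5517 genes. Of the members, 0 had an unadjusted p under 0.05, and DESeq2 and limma-voom called 0 as well. The median member stood at -0.23 against 0.03 over all genes, and 11 of 36 were positive. SEs ran from 0.46 to 1.22 with a median of 0.52, so a 2-fold difference, 1 on this scale, was less than 2 median SEs and hardly detectable at this depth with 1 IgG library, whose spread is assumed to equal that of the SMN pull-downs. Ezh2, Ino80 and Baz2a had too few reads to be tested.

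All 3 SMN pull-downs lay below the IgG library in 14 of the 36, beside 25.0% of all genes, and above it in 1, beside 20.1%. The 1 above it entered the test only through its 14 reads in pull-down 2 and was not tested without that library. That 1 was Chd7, which also had the smallest p of the members, with a value of 1.74 ± 1.22 (edgeR adjusted p = 0.999) from 3 reads in the IgG pull-down. Next by p came Arid1b at -0.55 ± 0.50 and Tet3 at -0.59 ± 0.54, both also with an edgeR adjusted p of 0.999. Tet3 was at 147, 102 and 91.6 CPM in the SMN pull-downs, 175 in the IgG pull-down, 107 and 42.5 in RiboLace, and 67.3 and 65.9 in polysomes.

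Kmt2d had an exact Poisson 95% interval of 397 to 603 CPM in the IgG pull-down, from 93 reads. The highest SMN pull-down was at 376, from 82 reads with a counting error of their own, and the fold was -0.49 ± 0.46. Only 2 members, Kmt2d included, had all SMN pull-downs under the IgG interval, and 0 had all over it. In 30 members the SMN mean lay inside it. These counts were made for the members only and have no share of all genes beside them. Pull-down 2 seems to be counted in another way than the IgG library. Without pull-down 2, 0 of 36 members were higher and 0 lower by the edgeR test, beside 0.0351% and 0.0526% of 5699 genes. Of the members, 0 had an unadjusted p under 0.05, and their median was -0.14.

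RiboLace against polysomes compares actively elongating ribosomes with all ribosomes on polysomes in brains of the same genotype. By the edgeR test 0 of the 39 members were higher and 0 lower, beside 1.31% and 0.925% of 10807 genes, and DESeq2 and limma-voom also called 0. At an unadjusted p under 0.05 there were 2 higher and 4 lower, beside 14.6% of all genes in either direction. The median was 0.10 against -0.29 over all genes, with 22 of 39 positive, and it moved between -0.59 and 0.32 with the settings given in the closing section. Both RiboLace libraries lay above both polysome libraries in 6 members, beside 13.1% of all genes, and below both in 12, beside 48.3%. A count of 3 stood at 53.6 and 63.8 CPM in the RiboLace libraries, so most members had little precision there.

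The 3 members with the smallest p did not pass. Crebbp, from 10 and 6 RiboLace reads, stood at -1.01 ± 0.34 (edgeR adjusted p = 0.0911), both RiboLace values lying below both polysome libraries. It stood at -0.041 with transcripts summed in 3 libraries (edgeR adjusted p = 0.976), and passed without polysome library 1 or 2 (edgeR adjusted p = 0.0199 and 0.0415, with 8 members tested). Arid2 stood at -2.17 ± 0.77 (edgeR adjusted p = 0.116) from 1 read in each RiboLace library, at 17.9 and 21.3 CPM against 108 and 98.9 in polysomes, 139, 110 and 87.0 in the SMN pull-downs and 127 in the IgG pull-down. Dnmt3a stood at 0.94 ± 0.36 (edgeR adjusted p = 0.161). It passed at a minimum count of 50 (1.17, edgeR adjusted p = 0.0359) and with counts summed per gene (0.80, edgeR adjusted p = 0.0232). Without RiboLace library 2 it was 0.26. Dnmt3a has 18 transcripts, and its value turned to -0.60 when the transcripts of a gene were summed in the libraries that seem to be counted without sharing.

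Other genes of the same complexes and processes were taken from fixed lists. Of 67 partner subunits, which have a median coding length of 1467 bases, 39 were tested in the SMN pull-downs against polysomes. Of these 7 were higher and 3 lower, beside 16.4% and 11.1% of all genes. Their median was 0.18, and -0.32 with pull-down 2 alone. The higher ones included Pbrm1 of the PBAF complex (1.90 ± 0.38, edgeR adjusted p = 0.00318), Hcfc1, a cofactor of KMT2 complexes (1.45 ± 0.24, edgeR adjusted p = 0.000924), and Mta1 of NuRD (1.39 ± 0.35, edgeR adjusted p = 0.0101). The lower ones were Kat5, Dpy30 and Smarce1, at -1.50 ± 0.34, -1.64 ± 0.42 and -1.06 ± 0.34, and their coding regions have 1542, 300 and 1236 bases.

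Of 76 other chromatin regulators, 5 of whose names were absent from the table, 45 were tested against polysomes. Of these 19 were higher and 3 lower, beside 16.4% and 11.1% of all genes, at a median coding length of 3144 bases. Their median was 0.69, and 0.06 with pull-down 2 alone. Setd1b, Kdm5c, Kdm5b and Setdb1, which write or erase histone methylation, stood 1.89 ± 0.25, 1.35 ± 0.23, 1.45 ± 0.26 and 1.57 ± 0.31 higher. The chromatin organiser Ctcf, the deacetylase Hdac9 and the heterochromatin protein gene Cbx5 stood at -1.93 ± 0.43, -1.28 ± 0.41 and -0.75 ± 0.25. In both lists 0 genes passed in either direction against the IgG pull-down or for RiboLace by the edgeR test. With pull-down 2 alone, 3 of 65 partner subunits and 2 of 68 other regulators were higher and 0 lower over polysomes, near the 2.91% of all genes.

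Genes that the labels bear on were also looked up. Smn1, the disrupted gene, was at 170, 102 and 156 CPM in the SMN pull-downs, 31.8 in the IgG pull-down, 35.7 and 0 in RiboLace, and 31.8 and 33.9 in polysomes, so reads were present in polysomes of Smn-/- brains. The SMN pull-downs of Smn+/- brain lay above every Smn-/- library, while the IgG pull-down of Smn+/- brain, with 6 reads, was no higher than these polysomes. Genotype and the way of isolating ribosomes differ together, so the level of Smn1 could not check the genotypes. All 13 neuronal and all 11 astrocyte markers had reads in every library. Neuronal markers summed to 11234 to 14392 CPM in the SMN pull-downs, 11934 in the IgG pull-down, 11574 and 12207 in RiboLace, and 8327 and 9112 in polysomes. Against polysomes 4 of 13 were higher in the SMN pull-downs and 4 of 13 in RiboLace, and 0 were lower (edgeR). Markers of neural progenitors and the cell cycle, 11 to 16 of 16 with reads, summed to 1090 to 1840 CPM in the SMN pull-downs, 1043 in the IgG pull-down, 681 and 912 in RiboLace, and 1091 and 1114 in polysomes. Of the 11 tested, 4 were higher in the SMN pull-downs than in polysomes and 0 lower, with a median of 0.51. Microglial markers, 6 to 9 of 9 with reads, summed to 348, 598 and 284 CPM in the SMN pull-downs and 254 in the IgG pull-down. They summed to 268 and 404 CPM in RiboLace, and to 655 and 663 in polysomes. Of the 6 tested, 3 were lower in the SMN pull-downs than in polysomes, with a median of -0.91. That median was 0.06 with pull-down 2 alone and -1.36 without it. Blood cell markers, 4 to 7 of 7 with reads, summed to 1755 to 2492 CPM in the SMN pull-downs, 1842 in the IgG pull-down, 4504 and 5340 in RiboLace, and 1981 and 2620 in polysomes, and 4 of the 5 tested were higher in RiboLace. The part of these markers in the members' folds was not tested.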

How the data were processed

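Ribosome-protected fragments of mouse brain were measured in 8 libraries. The values are raw read counts per Ensembl transcript in 1 table deposited by the authors, with 109463 transcripts of 45578 genes. Trimmomatic 0.36, Bowtie2 2.2.6, SAMtools and build GRCm38.p4 are named in the submitters' processing notes, and how reads that fit several transcripts were assigned was not found there. The 39 members and the other lists were chosen with earlier results of these data known.

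For each gene the protein-coding transcript with the most reads over all libraries was kept, which was the longest coding one for 24 members. Counts were scaled by TMM, filtered with filterByExpr (minimum count 10) and tested with edgeR 4.0.16 (R 4.3.3), glmQLFit and glmQLFTest with robust estimation, in the libraries of each comparison. P-values were Benjamini-Hochberg adjusted over all genes tested at 0.05. They measure the spread between these libraries only. DESeq2 1.42.0 and limma-voom (limma 3.58.1), library totals, other filters and transcripts, leaving out each library and the replicate number as a block were alternatives. The procedure was tested on simulated data with the same spread for every gene. Most simulated 2-fold and 4-fold changes were missed against IgG and for RiboLace against polysomes. For SMN pull-downs against polysomes most were recovered. Read counts carry no molecular identifiers here, so intervals cover counting error only. Summaries and figures used Python 3.11.15, pandas 2.3.3, SciPy 1.17.1 and matplotlib 3.10.9.

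Values for every library were given for the 10 called members with the largest change, the 3 with the smallest p in each other comparison, the highest and lowest levels, the longest and shortest coding regions and the paralogue groups, with up to 4 genes per direction from the other lists. A gene of those lists that this rule picks is not reported here. Further members were named to complete their role or because an alternative changed them, after their values were seen.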

Additional observations from a re-analysis of the deposited data

How the results depend on the processing

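The median member stood higher in the SMN pull-downs than in polysomes under every setting tried, but the count of members higher, 23, was not stable. It ranged from 4 to 27 with 1 library left out, was 3 of 10 tested at a minimum count of 50 (15.9% of all genes, median 0.59, rho with coding length 0.29), and was 10 (median 0.47) with SMN pull-down 2 alone. With transcripts summed in 3 libraries the median was 0.61 and rho 0.73. The replicate numbers are shared by SMN pull-downs and polysomes. The deviations of same-numbered libraries from their group means had r = 0.0102 and 0.0245 over 9264 genes, and 0.0128 for RiboLace. Few reads per gene pull such an r toward 0, so it could not show whether the numbers mark pairs. With the number as a replicate block, 9 members were higher (4.3% of all genes) and Crebbp stood at 0.11, and for RiboLace 0 members passed either way. Number 3 occurs only among the SMN pull-downs, so SMN pull-down 3 had a block of its own and did not bear on those folds over polysomes. SMN and IgG pull-downs share only 1 number, so no block could be fitted there. The IgG median over polysomes was 0.985 at a prior count of 5.

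For RiboLace the median of 0.10 was 0.16 by DESeq2, 0.17 by limma-voom, 0.15 with all 8 libraries in 1 fit, 0.0032 without a filter, 0.32 at a minimum count of 50 (1 higher, 5.24% of all genes), 0.0080 with counts summed per gene (2 higher, 2.06%), -0.028 with the longest coding region (rho 0.14), and -0.59 with transcripts summed in 3 libraries (1 lower, 3.31%, rho 0.19, Dnmt3a -0.60). With 1 library left out the median ran from -0.047 to 0.31, rho from -0.69 to -0.021 and members lower from 0 to 1; without a polysome library 8 members were tested.

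Single genes turned sign against polysomes as follows. By library totals, Arid2 was at -0.036, Ep300 at -0.058 and Smarcc2 at -0.17. With pull-down 2 alone, Chd3 was at -0.16, Crebbp 0.37, Ep300 -0.017, Hdac4 -0.32, Hdac5 -1.95, Smarcc1 -0.68 and Smarcc2 -0.064. With transcripts summed in 3 libraries, Crebbp was at 0.57, Dnmt3a -0.084, Setd5 -0.30, Smarca2 -0.14, Smarcc1 -0.53 and Smarcc2 -0.33. With 1 library left out, Crebbp ran from -0.40 to 0.10 (0.0082 without SMN pull-down 1, 0.10 without SMN pull-down 3) and Smarcc2 from -0.030 to 0.18 (-0.0052 without SMN pull-down 3, -0.030 without polysome library 2). Smarcc2 was at -0.046 without a filter, -0.079 at a minimum count of 50 and -0.014 with counts summed per gene. Over all members named and settings against polysomes, 131 values fell short of the threshold that the reported one had passed, 21 passed where it had not, and 384 kept direction and call. The causes were not tested. Pull-down 2 alone and transcripts summed in 3 libraries were chosen after seeing the data.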
